A study of Homo sapiens with 18 samples.

Results

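Aminoacyl-tRNA synthetases join each amino acid to its tRNA before the ribosome uses it. Human cells hold separate sets for the cytosol and for the mitochondria, both encoded in the nucleus. The enzymes fall into class I and class II by the fold of their catalytic domain, and several cytosolic enzymes sit together in the multisynthetase complex. Many cytosolic synthetase genes are known targets of ATF4, the transcription factor of the amino acid stress response, while NRF1 is a transcription factor that binds GC-rich promoters and is known for nuclear genes of mitochondrial function. Here 36 synthetase genes were followed, chosen by symbol, of 58870 genes in the count table. They were 20 cytosolic genes and 16 mitochondrial genes whose symbols end in 2, spelled with the older symbols of the table, so that SARS is the gene now called SARS1. All 36 were among the 17743 genes tested, with mean levels from 11.4 to 513 scaled CPM (counts brought to a common library total after TMM scaling).

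The cells were HEK293T, a human embryonic kidney line that carries the SV40 large T antigen. Each editor was given with a guide against splice sites of NRF1 exon 7 or with a guide against an intergenic site, in 6 groups of 3 libraries. SaABE is the ABE8e adenine deaminase on the nickase Cas9 of Staphylococcus aureus, SpABE is the same deaminase on the nickase Cas9 of Streptococcus pyogenes, and SpCBE is the evoCDA1 cytosine deaminase on the Streptococcus pyogenes nickase. In every group 750000 cells were transfected, selected in puromycin for 48 hours and harvested at 72 hours, so the intergenic-guide cells also carried an editor and a guide. The cells were bulk populations, in which fewer edited cells and a smaller effect per cell cannot be told apart. Nothing in the labels says that the 3 libraries of a group came from separate cultures, and p-values therefore measure only the spread between these libraries.

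Total counts ranged from 28101094 to 40687447 per library. NRF1 itself lay at 35.7 to 43.8 scaled CPM in the 9 NRF1-guide libraries, against 24.4 to 33.1 scaled CPM in the 9 intergenic-guide libraries. NRF1 mRNA as a whole was thus higher with the NRF1 guide (log2 fold change 0.49 ± 0.04 (SE), adjusted p = 3.61e-09), and the gene total does not measure exon 7. The label was checked against markers. KRT18, VIM and CDH2 were above 64 CPM in every library and PAX2 lay between 1.24 and 3.45 CPM, while PTPRC, CD3E, COL1A2, DCN and ALB stayed under 0.15 CPM. COL1A1 lay between 13.7 and 22.6 CPM, and KRT8 between 17.3 and 26.4 CPM. The 10 most abundant genes took a larger share of counts with the NRF1 guide than with the intergenic guide in each editor, 6.39% to 6.61% against 5.86% to 6.05% in SaABE. The part of this share in the results was not tested.

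Per kilobase of annotated exons, the cytosolic enzymes were the more abundant set. Their median level was 31.4 scaled CPM per kb in NRF1-guide libraries and 29.2 in intergenic-guide libraries, against medians for the mitochondrial set of 8.16 in NRF1-guide libraries and 7.89 in intergenic-guide libraries. The highest cytosolic levels per kb in NRF1-guide libraries were those of EPRS (94.5), TARS (86.4) and SARS (67.8). EPRS carries the glutamyl and prolyl activities in one protein, and TARS and SARS charge threonine and serine. Among the mitochondrial enzymes IARS2, for isoleucine, was highest, with 39.9 scaled CPM per kb in NRF1-guide libraries and 52.7 in intergenic-guide libraries, and NARS2, for asparagine, was lowest with 1.95 in NRF1-guide libraries and 2.16 in intergenic-guide libraries. IARS2 and HARS2 were the 2 of 13 mitochondrial enzymes with a cytosolic enzyme of the same amino acid whose level per kb exceeded it in intergenic-guide libraries. These lengths count every annotated exon once, so a gene with long rare exons has a low level per kb. They were 22.42 kb for IARS and 4.13 kb for IARS2, and 14.15 kb for HARS and 3.72 kb for HARS2. Without division by length, IARS had a mean of 502 scaled CPM in intergenic-guide libraries against 218 for IARS2. HARS had 97.5 against 34.2 for HARS2, so in both cases the cytosolic gene was then the higher.

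Over the 3 editors together, most cytosolic enzymes rose slightly with the NRF1 guide and the mitochondrial enzymes moved both ways. Of 20 cytosolic genes, 12 rose, 1 fell and 7 did not pass the test, at an adjusted p under 0.05 in edgeR's quasi-likelihood test with the editor as a term. Of 16 mitochondrial genes, 5 rose, 5 fell and 6 did not pass. Among all genes tested 20.6% rose and 18.8% fell, and among the 10023 genes with a mean of at least 10 scaled CPM, the range in which all 36 members lie, 30.4% rose and 22.8% fell. The cytosolic share that rose was thus 60.0% and the mitochondrial share 31.2%. Such shares depend on abundance as well as on the change, and the background was not matched to the abundance of either set. AARS, with a mean of 262 scaled CPM, passed with a log2 fold change of 0.041 ± 0.016 (SE). YARS2, with a mean of 37.5, did not pass with -0.084 ± 0.034 (SE). The median log2 fold change was 0.06 for the cytosolic set, 0.00 for the mitochondrial set and 0.01 for all genes. All these changes were small. None of the 36 had an absolute log2 fold change over 0.5 beside its adjusted p, which 5.5% of all genes tested had. Without the editor term, 4 cytosolic genes rose in place of 12.

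**Figure D1:**
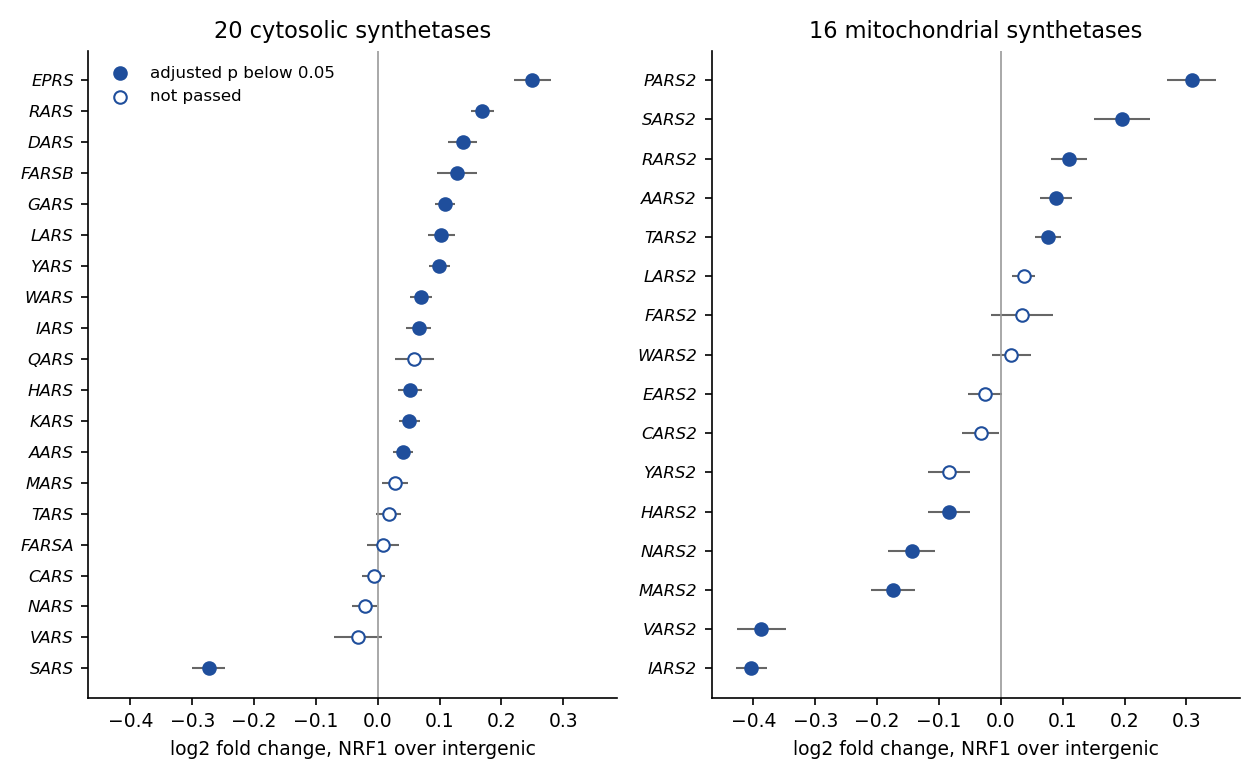
Log2 fold change of each synthetase with the NRF1 guide over the intergenic guide, 3 editors together (9 libraries against 9), for the cytosolic genes (left) and the mitochondrial genes (right). Bars are standard errors of the edgeR fit, filled points passed an adjusted p of 0.05. SARS at -0.27 stands apart below the cytosolic genes, and the mitochondrial genes spread from IARS2 at -0.40 to PARS2 at 0.31.

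EPRS had the largest rise of the cytosolic set. It lay at 545, 522 and 531 scaled CPM in SaABE NRF1-guide libraries, against 381, 430 and 412 with the intergenic guide. In SpABE it had 490, 492 and 488 scaled CPM with the NRF1 guide, against 454, 458 and 449 with the intergenic guide. In SpCBE it had 486, 490 and 487 scaled CPM with the NRF1 guide, against 404, 408 and 414 with the intergenic guide. All 9 values with the NRF1 guide thus exceeded all 9 with the intergenic guide, and the log2 fold change over the 3 editors was 0.25 ± 0.03 (SE, adjusted p = 2.7e-07), or 1.19-fold. EPRS lies on the minus strand at chr1:219968600-220046530 of hg38, and IARS2 on the plus strand of the same chromosome at chr1:220094132-220148041. The starts of EPRS, which rose, and of IARS2, which fell, are 47602 bases apart and face away from each other.

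RARS, the arginine enzyme, rose by a log2 fold change of 0.17 ± 0.02 (SE, adjusted p = 7.27e-08). Its levels were 210 to 218 scaled CPM in SaABE NRF1-guide libraries, against 185 to 196 with the intergenic guide. RARS and EPRS belong to the multisynthetase complex, of whose 8 enzymes DARS, EPRS, IARS, KARS, LARS and RARS rose. MARS and QARS, the other 2, had log2 fold changes of 0.03 and 0.06 and did not pass. All 8 estimates over the 3 editors were positive and their median was 0.08. Of the 10023 genes at 10 scaled CPM or more, 5744 had a positive estimate and 30.4% rose. In SpABE alone, 5 of the 8 estimates were positive and 3 negative, 4 genes rose, and MARS and QARS fell. The MARS call in SpABE held in only 3 of the 18 fits that left out 1 library. Of the 3 non-enzyme proteins of the complex, AIMP2 rose by 0.17 and EEF1E1 by 0.09 on the log2 scale, and AIMP1 had 0.01 (adjusted p = 0.763). Among the free enzymes, FARSB, the beta subunit of the phenylalanine enzyme, rose by 0.13, GARS (glycine) by 0.11, YARS (tyrosine) by 0.10, WARS (tryptophan) by 0.07, HARS (histidine) by 0.05 and AARS (alanine) by 0.04, all on the log2 scale. GARS and KARS, which serve the cytosol and the mitochondria from one gene, both rose, by 0.11 and 0.05. KARS lost its call without the low-count filter (adjusted p = 0.0914), without the editor term (0.325) and with the replicate number as a block (0.0613), and GARS lost its call without the editor term. The calls of AARS and HARS were lost in 13 and 9 of the 18 fits that left out 1 library, with adjusted p up to 0.0947 without SaABE intergenic replicate 2 for AARS and 0.0832 without SaABE NRF1 replicate 1 for HARS.

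Some of these genes overlap others, and the strand setting of the counting is not given in the sources used here. MARS shares 982 bases with DDIT3 on the opposite strand, which rose by 0.19 on the log2 scale. YARS shares 1265 bases with S100PBP (log2 fold change 0.11) and KARS shares 871 bases with TERF2IP (log2 fold change 0.14). Each of these overlaps is between opposite strands, and whether the counting kept their reads apart is not known. Other members overlap genes on the same strand, among them HARS2 with ZMAT2 (626 bases) and EARS2 with GGA2 (1242 bases). The part of reads from shared bases in the members' values was not tested. EPRS, SARS, IARS2, VARS2 and PARS2 overlap no other gene tested.

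**Figure D2:**
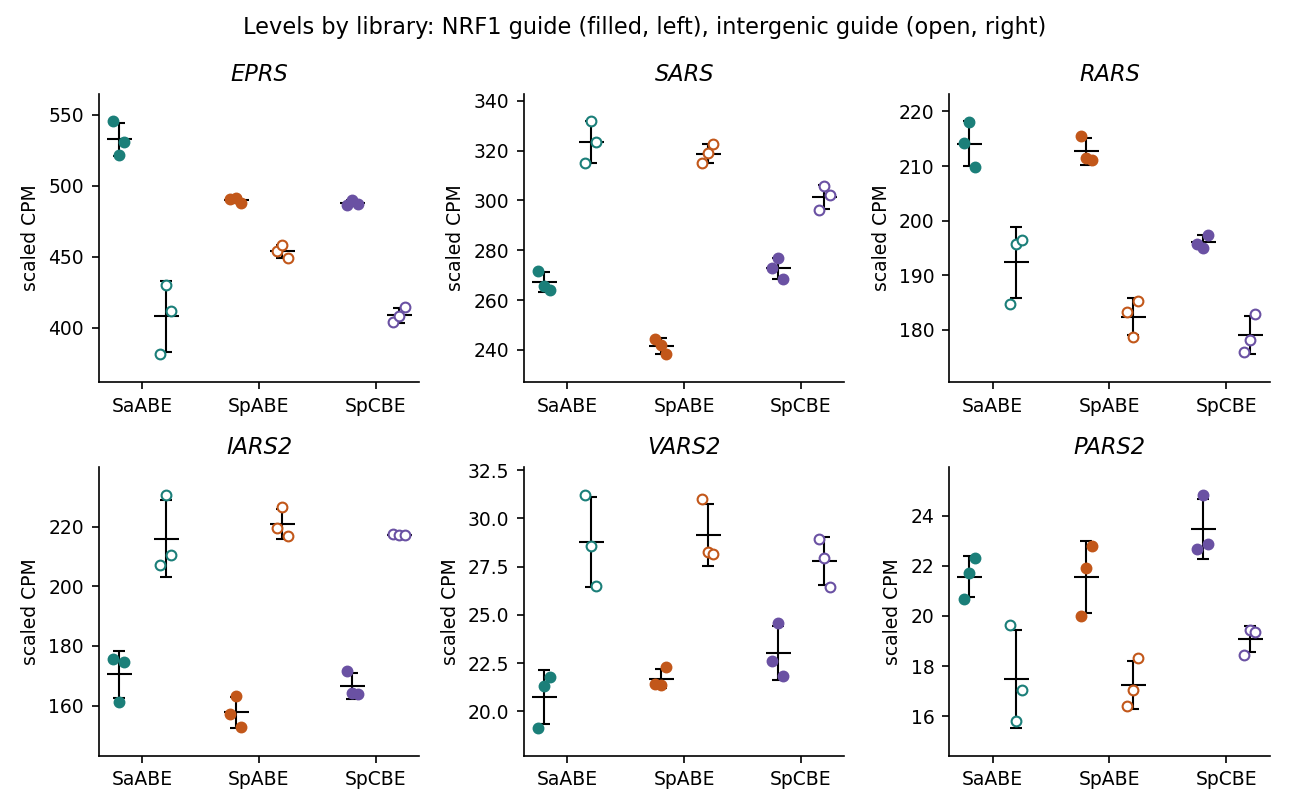
Levels in scaled CPM of 6 synthetases in each of the 18 libraries. For each editor the NRF1-guide libraries (filled) stand left of the intergenic-guide libraries (open). The black marks are mean and SD of 3 libraries and the axes do not start at 0. EPRS, RARS and PARS2 lie higher with the NRF1 guide in each editor, and SARS, IARS2 and VARS2 lie lower.

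SARS, the seryl-tRNA synthetase, was the only cytosolic enzyme that fell over the 3 editors. It had 272, 266 and 264 scaled CPM in SaABE NRF1-guide libraries, against 315, 332 and 323 with the intergenic guide. In SpABE it had 244, 242 and 238 with the NRF1 guide, against 315, 319 and 323 with the intergenic guide. In SpCBE it had 273, 277 and 268 with the NRF1 guide, against 296, 306 and 302 with the intergenic guide. The 2 guides did not overlap in any editor, and the log2 fold change was -0.27 ± 0.03 (SE, adjusted p = 1.08e-08). Besides serine, SARS also charges the tRNA of selenocysteine, and SEPSECS, the enzyme that converts this serine to selenocysteine, had a log2 fold change of -0.27 as well (adjusted p = 8.36e-05). PSTK, which phosphorylates the serine between the 2 steps, had 0.04 (adjusted p = 0.563). SARS lies at chr1:109213918-109238182 on the plus strand.

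The mitochondrial set had the largest changes of all members, and the largest was a fall of IARS2. IARS2 had 176, 161 and 175 scaled CPM in SaABE NRF1-guide libraries, against 207, 231 and 210 with the intergenic guide. In SpABE it had 157, 163 and 153 with the NRF1 guide, against 219, 226 and 217 with the intergenic guide. In SpCBE it had 172, 164 and 164 with the NRF1 guide, against 218, 217 and 217 with the intergenic guide. All 9 NRF1-guide values lay below all 9 intergenic-guide values, and the level was 0.756 times that with the intergenic guide (log2 fold change -0.40 ± 0.03 (SE), adjusted p = 3.87e-12). VARS2, for valine, at chr6:30914205-30926459, fell by a like amount. Its NRF1-guide libraries lay between 19.2 and 24.6 scaled CPM (median 21.8) and its intergenic-guide libraries between 26.4 and 31.2 (median 28.3). The log2 fold change of VARS2 was -0.39 ± 0.04 (SE, adjusted p = 2.69e-08), and no NRF1-guide library reached an intergenic-guide library.

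PARS2, the mitochondrial proline enzyme at chr1:54756898-54764523, moved the other way. It had 20.7, 21.7 and 22.3 scaled CPM in SaABE NRF1-guide libraries, against 19.6, 15.8 and 17.0 with the intergenic guide. In SpABE it had 19.99, 21.9 and 22.8 with the NRF1 guide, against 16.4, 17.0 and 18.3 with the intergenic guide. In SpCBE it had 22.7, 24.8 and 22.9 with the NRF1 guide, against 18.5, 19.4 and 19.4 with the intergenic guide. PARS2 rose in each editor with log2 fold changes of 0.30, 0.32 and 0.30 in SaABE, SpABE and SpCBE, and over the 3 editors by 0.31 ± 0.04 (SE, adjusted p = 7.29e-07). SARS2, the mitochondrial seryl enzyme, had 21.8 to 26.2 scaled CPM with the NRF1 guide (median 23.9), against 19.2 to 24.1 with the intergenic guide (median 20.5). It rose by 0.20 ± 0.05 on the log2 scale (SE, adjusted p = 0.00127), but its libraries overlapped in SaABE and SpABE. RARS2 rose by 0.11, AARS2 by 0.09 and TARS2 by 0.08, and MARS2 fell by 0.17 and NARS2 by 0.14 on the log2 scale. HARS2 had -0.08 (adjusted p = 0.0484), a call lost in 14 of the 18 fits without 1 library and highest without SpABE intergenic replicate 3 (adjusted p = 0.111). YARS2 had -0.08 and an adjusted p of 0.0565, and it passed without SaABE NRF1 replicate 1 (0.0368), SpABE intergenic replicate 1 (0.015) or SpCBE NRF1 replicate 3 (0.0242). CARS2, EARS2, FARS2, LARS2 and WARS2 lay between -0.03 and 0.04 on the log2 scale and did not pass.

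Promoters were searched for the core of the NRF1 site, GCGCANGCG on either strand, because NRF1 is the targeted factor. The windows run from 250 bases before to 50 after the start of transcription, come from RefSeq on GRCh38.p14, and were given for 30 of the 36 genes (DARS, LARS, VARS, YARS, AARS2 and VARS2 had no entry). The motif was in 3 of 16 cytosolic promoters and in 3 of 14 mitochondrial promoters, against 14.2% of promoters of tested genes and 8.05% of all 27305 promoters. The genes were FARSB, SARS and TARS in the cytosolic set and IARS2, MARS2 and PARS2 in the mitochondrial set. Of these 6, FARSB and PARS2 rose, SARS, IARS2 and MARS2 fell, and TARS, with the motif 234 bases before the start, had a log2 fold change of 0.02 (adjusted p = 0.526). In 4 of the genes a match begins within 30 bases before the start, and in PARS2 it begins at base 4 after it. The stretches from 150 bases before to 30 after the start are shown for the 5 that passed, 5′ to 3′ on the strand of the gene, with the motif in capitals. They lie at chr1:109213743-109213922 and chr1:220093982-220094161 on the plus strand, chr1:54764494-54764673 on the minus strand, chr2:197705219-197705398 on the plus strand and chr2:222656063-222656242 on the minus strand.
SARS: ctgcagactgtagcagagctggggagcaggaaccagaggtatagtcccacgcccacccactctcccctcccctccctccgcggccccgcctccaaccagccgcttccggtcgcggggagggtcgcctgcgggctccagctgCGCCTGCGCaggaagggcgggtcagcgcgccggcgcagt
IARS2: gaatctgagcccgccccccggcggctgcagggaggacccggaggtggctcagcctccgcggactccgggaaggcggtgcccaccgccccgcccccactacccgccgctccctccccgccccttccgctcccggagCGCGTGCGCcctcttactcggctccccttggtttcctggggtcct
PARS2: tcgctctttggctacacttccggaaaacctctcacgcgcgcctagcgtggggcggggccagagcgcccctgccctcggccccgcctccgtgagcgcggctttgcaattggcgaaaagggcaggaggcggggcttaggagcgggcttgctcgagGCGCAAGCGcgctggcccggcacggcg
MARS2: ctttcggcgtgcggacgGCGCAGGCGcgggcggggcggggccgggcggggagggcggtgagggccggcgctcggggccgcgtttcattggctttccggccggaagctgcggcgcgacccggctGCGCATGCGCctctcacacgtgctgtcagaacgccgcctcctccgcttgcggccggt
FARSB: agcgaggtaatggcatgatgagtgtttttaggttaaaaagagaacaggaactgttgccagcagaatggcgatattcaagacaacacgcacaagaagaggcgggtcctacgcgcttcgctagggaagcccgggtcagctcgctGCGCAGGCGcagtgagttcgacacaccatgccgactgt
MARS2 holds 3 matches, and the last 2 start 1 base apart on opposite strands. A match says only that these letters are there, and members with one moved in both directions.

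The 2 enzymes for the same amino acid were then set side by side. Of 13 amino acids with members paired by symbol (such as AARS and AARS2), both genes rose for alanine and arginine. For histidine and isoleucine the cytosolic gene rose and the mitochondrial gene fell, and for serine the cytosolic gene fell and the mitochondrial gene rose. Both genes fell for none. For methionine, asparagine and valine the mitochondrial gene fell while the cytosolic gene did not pass, and for threonine the mitochondrial gene rose. For leucine, tryptophan and tyrosine the cytosolic gene rose and the mitochondrial gene did not pass, and for cysteine neither passed. The mitochondrial log2 fold change was below the cytosolic in 10 of the 13 pairs. Whether the 2 genes of a pair differed was not tested. For proline and glutamate, EPRS and PARS2 rose and EARS2 had -0.03 on the log2 scale (adjusted p = 0.507).

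**Figure D3:**
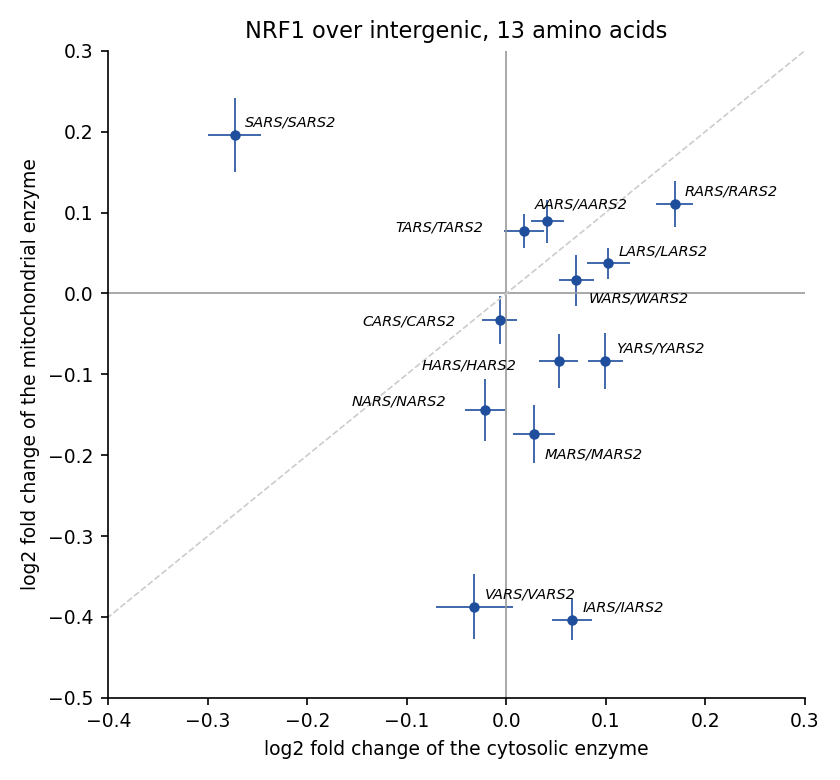
Log2 fold change (NRF1 over intergenic guide, 3 editors together) of the mitochondrial enzyme against that of the cytosolic enzyme for 13 amino acids. Bars are standard errors, and on the dashed line both would change equally. SARS/SARS2 is alone in the upper left, and VARS/VARS2 and IARS/IARS2 lie lowest.

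HARS and HARS2 are the pair that lies side by side in the genome. They stand head to head on opposite strands of chromosome 5 with starts 107 bases apart and 108 bases in common. HARS had 106, 100 and 98.3 scaled CPM in SaABE NRF1-guide libraries, against 93.7, 94.2 and 94.8 with the intergenic guide. HARS2 had 29.8, 27.4 and 29.1 in the same NRF1-guide libraries, against 33.6, 29.0 and 31.0 with the intergenic guide. HARS was thus above in all SaABE libraries and HARS2 overlapped. In SpABE, HARS had 98.2, 102 and 101 scaled CPM with the NRF1 guide, against 97.7, 97.5 and 101 with the intergenic guide. HARS2 had 32.5, 32.1 and 31.0 in the SpABE NRF1-guide libraries, against 34.5, 34.8 and 36.04 with the intergenic guide, so here HARS2 was below and HARS overlapped. In SpCBE both overlapped, with log2 fold changes of 0.03 for HARS and 0.00 for HARS2.

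The second motif was that of ATF4, searched as TGATGNAA on either strand, the composite site of ATF4 and C/EBP proteins. It was in 6 of 16 cytosolic promoters (37.5%), AARS, CARS, IARS, MARS, NARS and TARS, and in 1 of 14 mitochondrial promoters, YARS2. Among promoters of tested genes 1.63% held it. Each cytosolic match is shown in a stretch of 80 bases with the motif in capitals, to let the common core be read across the genes. The stretches run from 50 bases before to 30 after the start, except in AARS, where the match begins at base -187 and the stretch is moved upstream. They lie at chr16:70289642-70289721, chr11:3057394-3057473, chr9:92293668-92293747 and chr18:57621807-57621886 on the minus strand, and at chr12:57488018-57488097 and chr5:33440915-33440994 on the plus strand.
AARS: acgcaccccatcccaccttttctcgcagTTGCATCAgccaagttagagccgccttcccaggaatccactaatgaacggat
CARS: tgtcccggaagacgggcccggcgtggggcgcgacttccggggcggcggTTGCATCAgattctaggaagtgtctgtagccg
IARS: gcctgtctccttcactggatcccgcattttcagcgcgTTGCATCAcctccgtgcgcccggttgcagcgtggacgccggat
MARS: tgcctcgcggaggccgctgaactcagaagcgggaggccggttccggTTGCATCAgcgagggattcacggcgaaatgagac
NARS: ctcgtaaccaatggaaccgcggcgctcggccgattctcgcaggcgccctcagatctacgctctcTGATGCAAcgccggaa
TARS: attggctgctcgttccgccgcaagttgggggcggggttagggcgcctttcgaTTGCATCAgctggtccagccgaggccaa
All but NARS carry the motif as its reverse complement. Of these 6 genes AARS and IARS rose, by 0.04 and 0.07 on the log2 scale, and CARS, MARS, NARS and TARS lay between -0.02 and 0.03 and did not pass. A list of 12 cytosolic genes known as ATF4 targets had 7 that rose and 1 that fell (SARS), with a median log2 fold change of 0.05, and of the 8 cytosolic genes outside it 5 rose. The share of genes at 10 scaled CPM or more that rose was 30.4%. Its largest rise, EPRS, has no match in the window searched.

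Other genes of tRNA charging were looked at for context. Of 15 further genes, 6 rose and 3 fell over the 3 editors, where 20.6% of all genes tested rose and 18.8% fell. QRSL1 (log2 fold change 0.18), GATB (0.14) and GATC (0.08), the 3 subunits of the amidotransferase that makes mitochondrial glutaminyl-tRNA in place of a synthetase, all rose. EARS2, which makes the glutamyl-tRNA this enzyme works on, did not pass. PTRHD1, which resembles peptidyl-tRNA hydrolases, rose by 0.30, DTD2, which removes wrongly attached amino acids, by 0.19, and XPOT, which exports tRNA from the nucleus, by 0.15. The 3 that fell were MTFMT, which formylates the mitochondrial initiator methionyl-tRNA (-0.46 ± 0.05 (SE), adjusted p = 1.01e-07), MTRFR, a mitochondrial ribosome rescue factor listed under its older name C12orf65 (-0.39 ± 0.03 (SE), adjusted p = 7.49e-10), and SEPSECS. MARS2, which supplies the methionyl-tRNA for MTFMT, also fell, by 0.17. Of the elongation factors that bring charged tRNA to the ribosome, EEF1A1 rose by 0.14 and the mitochondrial TUFM by 0.10, and EEF1A2 fell by 0.17. TSFM, the exchange factor of TUFM, rose by 0.08.

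The editors were then taken 1 by 1. In SaABE 11 cytosolic genes rose and 2 fell, and 2 mitochondrial genes rose and 3 fell, where 16.9% of all genes tested rose and 15.5% fell, and 26.4% and 20.2% of genes with a mean of at least 10 scaled CPM. In SpABE 6 cytosolic genes rose and 5 fell, and 1 mitochondrial gene rose and 6 fell, against 15.4% and 17.3% of all genes and 23% and 23.1% of genes at 10 scaled CPM or more. In SpCBE 12 cytosolic genes rose and 1 fell, and 5 mitochondrial genes rose and 2 fell, against 11% and 12% of all genes and 17.1% and 16.3% of genes at 10 scaled CPM or more. The median log2 fold change of the cytosolic set was 0.09, 0.02 and 0.09 in SaABE, SpABE and SpCBE. Whether these counts differ between editors was not tested as a set. Under the other settings, the cytosolic genes that rose numbered 7 to 14 in SaABE, the 7 from a fit on its own 6 libraries, and 11 to 14 in SpCBE. The count of 5 that fell in SpABE was 3 without SpABE intergenic replicate 1 or 2 or without SpABE NRF1 replicate 2 or 3, and the count of 6 mitochondrial genes that fell was 3 without SpABE NRF1 replicate 3. The 1 mitochondrial gene that rose in SpABE became 2 without SpABE NRF1 replicate 1 or intergenic replicate 3.

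8 members passed the test in the same direction in each of the 3 editors, and the share of all genes that did so was not counted. DARS, EPRS, GARS, RARS and PARS2 rose in each, and SARS, IARS2 and VARS2 fell in each. Within each editor the 2 guides did not overlap in 10 members. In 7 of these the NRF1 guide was the higher (DARS, EPRS, GARS, LARS, RARS, YARS and PARS2), a pattern of 6.24% of all genes tested and of 10.2% of genes at 10 scaled CPM or more. In 3 it was the lower (SARS, IARS2 and VARS2), a pattern of 8.99% and 12.3%. IARS2 had log2 fold changes of -0.34, -0.49 and -0.38 and VARS2 of -0.47, -0.42 and -0.27 in SaABE, SpABE and SpCBE. The DARS call in SpABE (adjusted p = 0.0322) was lost in 4 of the 18 fits without 1 library, those without SpABE NRF1 replicate 1 or 3 or SpABE intergenic replicate 2 or 3. Without SpCBE intergenic replicate 1 the DARS call in SpCBE was lost (adjusted p = 0.0941), as was that of GARS in SaABE without SaABE intergenic replicate 1 (adjusted p = 0.0619).

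**Figure D4:**
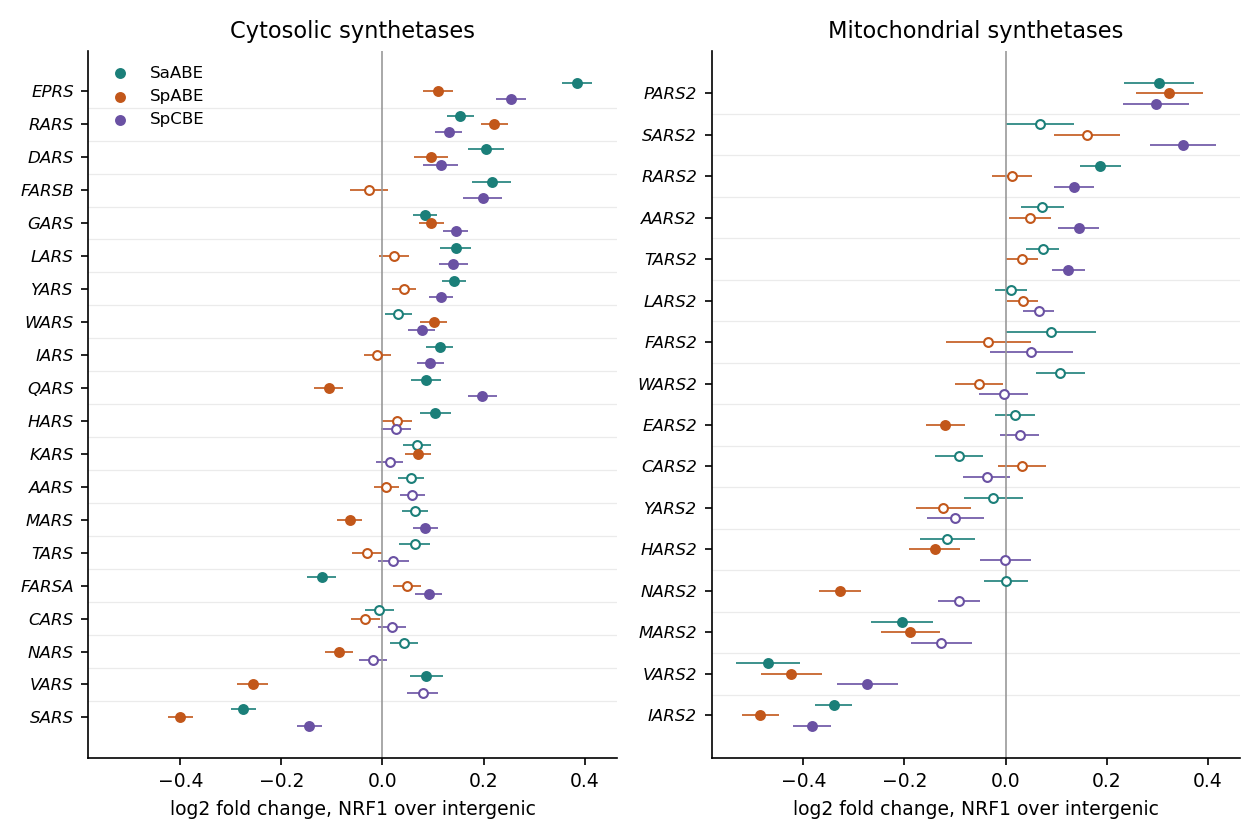
Log2 fold change of each synthetase with the NRF1 guide over the intergenic guide in SaABE, SpABE and SpCBE (3 libraries against 3 each, bars are standard errors, filled points passed an adjusted p of 0.05). Genes are ordered by the change over the 3 editors. QARS and VARS lie on both sides of 0, and PARS2 is at about the same place in each editor.

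The differences between editors were tested directly, in 1 fit with the 6 group means. The NRF1 effect differed in 2 members between SaABE and SpCBE (4.09% of all genes tested), in 7 between SpABE and SpCBE (8.96%) and in 11 between SaABE and SpABE (11.7%). These are 5.56%, 19.4% and 30.6% of the members, where 6.44%, 13.7% and 18.3% of genes at 10 scaled CPM or more differed. In the fits without 1 library the counts were 1 to 3, 6 to 9 and 7 to 15, and with the replicate number as a block they were 1, 6 and 6. The 11 between SaABE and SpABE became 15 without SaABE intergenic replicate 2 and 7 without SaABE NRF1 or intergenic replicate 1, SpABE NRF1 replicate 3, SpCBE NRF1 replicate 1 or SpCBE intergenic replicate 3. The 2 between SaABE and SpCBE became 1 without SaABE NRF1 replicate 2 or 3, SaABE intergenic replicate 3 or SpCBE NRF1 replicate 2. Together the members that differed were 11 genes, 9 cytosolic and 2 mitochondrial. The share of all genes that differed in at least 1 of the 3 comparisons was not counted. Whether the 2 sets differ in this was not tested. VARS, the cytosolic valine enzyme, differed most. It had 92.1, 96.4 and 94.4 scaled CPM in SaABE NRF1-guide libraries, against 92.1, 85.3 and 89.0 with the intergenic guide. In SpABE it had 97.3, 95.9 and 97.7 with the NRF1 guide, against 114, 117 and 116 with the intergenic guide. In SpCBE it had 119, 119 and 124 with the NRF1 guide, against 113, 118 and 112 with the intergenic guide. VARS thus fell in SpABE, with no overlap, by a log2 fold change of -0.26 ± 0.03 (SE, adjusted p = 4.42e-07). The SpABE effect lay 0.34 below that of SaABE and of SpCBE (adjusted p = 1.8e-05 and 1.75e-05). Its value of 0.09 in SaABE passed (adjusted p = 0.0446) but held in only 3 of the 18 fits without 1 library.

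QARS, the glutamine enzyme, which has no mitochondrial counterpart, went down with SpABE and up with SpCBE. It had 108, 111 and 111 scaled CPM in SpABE NRF1-guide libraries, against 115, 120 and 121 with the intergenic guide. In SpCBE it had 136, 137 and 134 with the NRF1 guide, against 115, 120 and 120 with the intergenic guide. In SaABE it had 107, 108 and 112 with the NRF1 guide, against 105, 103 and 101 with the intergenic guide. The effect in SpABE minus that in SpCBE was -0.30 ± 0.04 (SE, adjusted p = 2.92e-05), and over the 3 editors QARS had 0.06 (adjusted p = 0.152). NARS2 fell in SpABE, with 31.8, 30.8 and 31.3 scaled CPM with the NRF1 guide, against 39.2, 40.2 and 38.5 with the intergenic guide. In SaABE it had 32.5, 32.5 and 32.6 with the NRF1 guide, against 30.7, 34.8 and 32.0 with the intergenic guide, a log2 fold change of 0.00. The 3 SpABE intergenic-guide libraries held the highest NARS2 values of the series, and the NRF1-guide libraries of the 3 editors lay within 30.8 to 32.9.

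The phenylalanine enzyme is built of FARSA and FARSB, its alpha and beta subunits. In SaABE, FARSA had 119, 123 and 125 scaled CPM with the NRF1 guide, against 133, 132 and 134 with the intergenic guide. FARSB had 126, 137 and 125 in the same NRF1-guide libraries, against 108, 115 and 111 with the intergenic guide. FARSA thus fell by 0.12 on the log2 scale and FARSB rose by 0.22 (adjusted p = 0.00206 and 0.000113). In SpCBE both rose, FARSA by 0.09 and FARSB by 0.20. FARSA had 146, 147 and 145 scaled CPM with the NRF1 guide there, against 139, 136 and 136 with the intergenic guide, and FARSB had 117, 121 and 120 with the NRF1 guide, against 99.4, 106 and 108 with the intergenic guide. In SpABE neither passed, and FARSB had 121, 122 and 120 scaled CPM with the NRF1 guide, against 122, 129 and 118 with the intergenic guide. The FARSA effect in SaABE differed from that in SpCBE by -0.21 ± 0.04 (SE, adjusted p = 0.00246), and without SpCBE intergenic replicate 2 its rise in SpCBE had an adjusted p of 0.0512.

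**Figure D5:**
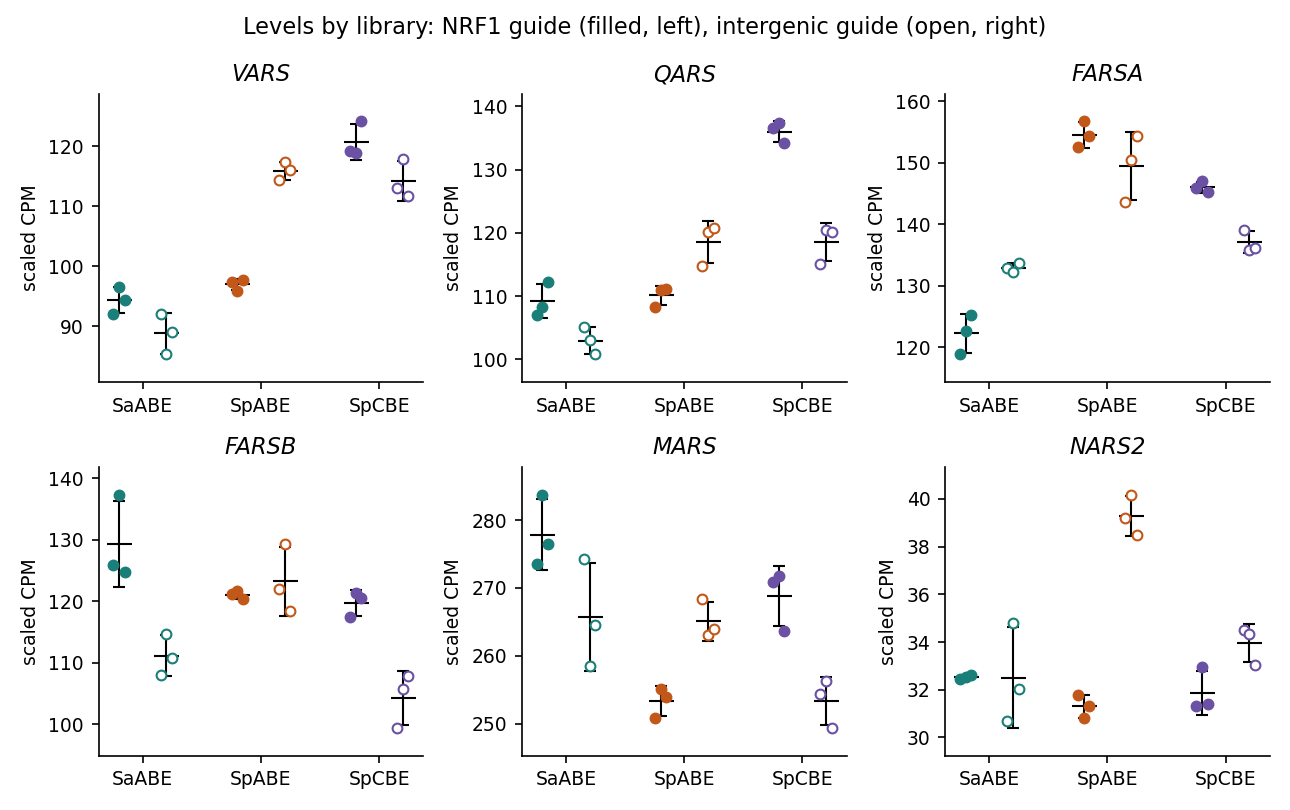
Levels in scaled CPM of 6 synthetases whose NRF1 effect differed between editors, in each of the 18 libraries. NRF1-guide libraries (filled) stand left of intergenic-guide libraries (open), black marks are mean and SD of 3 libraries, and the axes do not start at 0. In VARS and NARS2 the 3 SpABE intergenic-guide libraries lie well above the SpABE NRF1-guide libraries.

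SARS and EPRS changed in one direction throughout but by different amounts. SARS had log2 fold changes of -0.28, -0.40 and -0.14 in SaABE, SpABE and SpCBE, and all 3 differences passed, that between SpABE and SpCBE with -0.26 ± 0.03 (SE, adjusted p = 3.09e-05). The SARS difference of SaABE from SpCBE held in 13 and that of SaABE from SpABE in 12 of the 18 fits without 1 library. EPRS had 0.38, 0.11 and 0.25, and the effect in SaABE lay 0.27 ± 0.04 above that in SpABE (SE, adjusted p = 0.000127).

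The intergenic-guide libraries also differed from each other between editors, and that bears on the differences above because each effect is read against its own controls. Between the SaABE and SpABE controls 18 members differed (38.4% of all genes tested), between the SpABE and SpCBE controls 20 (35.5%) and between the SaABE and SpCBE controls 20 (40.6%). These are 50%, 55.6% and 55.6% of the members, where 52.3%, 47.1% and 54.5% of genes at 10 scaled CPM or more differed. In all, 29 of the 36 differed between at least one pair of controls, 19 of them cytosolic. The share of all genes that differed between at least one pair was not counted. VARS was lower in SaABE controls than in SpABE controls (log2 difference -0.38) and than in SpCBE controls (-0.36), and AARS was higher in SaABE than in SpABE controls (0.26). NARS2 was higher in SpABE controls, by 0.21 over SpCBE controls, and was lower in SaABE than in SpABE controls (-0.27). SARS differed less between controls, by 0.02 between SaABE and SpABE, 0.08 between SpABE and SpCBE and 0.10 between SaABE and SpCBE. Each editor came on a plasmid of its own with its guide, so editor, plasmid and guide cannot be told apart in these comparisons.

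Summed over each set, the 2 compartments moved in opposite directions in SaABE and SpCBE. The cytosolic sum was 4983 ± 52.3 scaled CPM (SD, n = 3) in SaABE NRF1-guide libraries and 4663 ± 95.6 with the intergenic guide. In SpABE it was 4732 ± 34.4 with the NRF1 guide and 4730 ± 13.9 with the intergenic guide, and in SpCBE 4865 ± 29.6 with the NRF1 guide and 4574 ± 53.4 with the intergenic guide. The cytosolic sums thus did not overlap in SaABE and SpCBE and overlapped in SpABE. The mitochondrial sum was 801.5 ± 14.1 in SaABE NRF1-guide libraries and 839.8 ± 12.4 with the intergenic guide, 786.3 ± 11.4 in SpABE with the NRF1 guide and 865.9 ± 2.22 with the intergenic guide, and 799.9 ± 3.84 in SpCBE with the NRF1 guide and 828.4 ± 11.6 with the intergenic guide. It was lower with the NRF1 guide in each editor, with no overlap. IARS2 is the most abundant member of that set, and without it the order changed. The sum of the other 15 was 631.0 ± 8.5 with the NRF1 guide and 623.8 ± 9.39 with the intergenic guide in SaABE, where the libraries overlapped. In SpABE it was 628.4 ± 6.56 with the NRF1 guide and 645.0 ± 4.38 with the intergenic guide, and in SpCBE 633.3 ± 7.3 with the NRF1 guide and 611.1 ± 11.7 with the intergenic guide, so that it was lower in SpABE and higher in SpCBE. Without EPRS, the cytosolic sum was 4450 ± 47 with the NRF1 guide and 4255 ± 71.3 with the intergenic guide in SaABE. It was 4242 ± 32.9 with the NRF1 guide and 4276 ± 11.2 with the intergenic guide in SpABE, and 4377 ± 29 with the NRF1 guide and 4165 ± 50.8 with the intergenic guide in SpCBE. It was thus higher in SaABE and SpCBE and lower in SpABE. These sums are a description, with no test.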

How the data were processed

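Polyadenylated RNA of HEK293T cells was sequenced with a stranded kit, and 18 libraries in 6 groups of 3 were used. The authors trimmed reads with cutadapt 1.18 and aligned them to hg38 with STAR 2.7.0f, per the submitters' processing notes, which also name DESeq2 1.46.0. How reads were assigned to genes (program, strand, multiple matches) is not given in the sources used here. The deposited table holds the authors' estimated counts per gene, not normalized, of which 19.63% of nonzero values were not whole. They were rounded before the tests, which had been planned for whole counts. A further 18 sample columns of the table were not used.

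Genes were kept with filterByExpr by group and scaled by TMM. Quasi-likelihood tests of edgeR 4.0.16 (R 4.3.3) were adjusted by Benjamini-Hochberg over all 17743 genes. A gene rose or fell where the adjusted p was under 0.05. The comparison over 3 editors had the editor as an additive term. Effects per editor, their differences and those between controls came from 1 fit of 6 group means over all 18 libraries. The tests were checked on simulated data with the same spread for every gene, changes in few genes and no difference between the controls of the editors. That setting is simpler than these data. Replicate pairs of each group differed by more than sampling noise. Standard errors over 3 editors were 0.016 to 0.05 on the log2 scale. With 3 libraries against 3 an exact permutation test could not go below p = 0.1, so none was used.

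Positions and exon lengths came from GENCODE 44 on hg38, and promoters from RefSeq (GRCh38.p14), all 27305 identical to the hg38 genome. 1 gene of the wider lists is not reported here. The members and gene lists were chosen with earlier results of these data known. Values per library were given for members past the adjusted p with a log2 change over 0.2, for the 6 largest that differed between editors, for SARS, EPRS, HARS, HARS2 and NRF1, and RARS, SARS2 and FARSA were added after their values were seen. Alternatives were DESeq2 1.42.0, RLE and upper-quartile scaling, no filter, no editor term, only an editor's own libraries, the replicate number as a block, and leaving out each library. Genes of mean CPM of at least 10 were added as background after the data were seen.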

Additional observations from a re-analysis of the deposited data

Results flagged for a closer look

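Each of these values is a difference between 2 editors in the log2 fold change of NRF1 guide over intergenic guide that passed an adjusted p of 0.05 in edgeR's quasi-likelihood test. Between SaABE and SpABE, the effect of SaABE minus that of SpABE was 0.34 for VARS, 0.33 for NARS2, 0.27 for EPRS, 0.24 for FARSB, 0.19 for QARS, 0.18 for RARS2, 0.13 for MARS, NARS and SARS, 0.12 for IARS and -0.17 for FARSA. Between SpABE and SpCBE, the effect of SpABE minus that of SpCBE was -0.34 for VARS, -0.30 for QARS, -0.26 for SARS, -0.23 for NARS2, -0.22 for FARSB, -0.15 for MARS and -0.14 for EPRS. Between SaABE and SpCBE, the effect of SaABE minus that of SpCBE was -0.21 for FARSA and -0.13 for SARS.

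Several of these lie near the threshold. In the 18 fits without 1 library, the difference of SaABE from SpABE was lost for RARS2 in 16 (adjusted p up to 0.121), for NARS in 14 and for IARS in 13, and that of SpABE from SpCBE for EPRS in 10. The differences themselves kept their sign in these fits, and ran from 0.143 to 0.226 for RARS2, from 0.099 to 0.148 for NARS, from 0.093 to 0.148 for IARS and from -0.152 to -0.134 for EPRS. VARS, NARS2, QARS, FARSA, FARSB and MARS kept theirs in every such fit. The 2 comparisons of SpABE share its 6 libraries, so their values are not independent. NARS2 is the mitochondrial asparagine enzyme and NARS the cytosolic one, and both had a lower effect in SpABE than in SaABE.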

How the results depend on the processing

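Over the 3 editors, SARS, EPRS, RARS, IARS2, VARS2, PARS2, SARS2, MARS2 and NARS2 kept their direction and their call under every alternative run. Without the editor term the cytosolic genes that rose numbered 4 in place of 12, and AARS, DARS, GARS, HARS, HARS2, IARS, KARS, LARS, TARS2 and WARS lost their calls. Leaving out the low-count filter cost AARS, HARS, HARS2 and KARS theirs (adjusted p = 0.205, 0.136, 0.0708 and 0.0914), and HARS2 also lost its call with DESeq2, RLE and upper-quartile scaling (adjusted p = 0.0746, 0.0646 and 0.0841). Under upper-quartile scaling CARS turned to 0.003 (adjusted p = 0.918). Across the fits without 1 library CARS ran from -0.013 to 0.001, above 0 without SpABE intergenic or NRF1 replicate 3. FARSA ran from -0.003, without SpABE intergenic replicate 1, to 0.023. Neither gene passed in any of these. The cause was not tested.

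In single editors, SaABE gave 7 cytosolic genes that rose on its own 6 libraries. In SpABE, 2 mitochondrial genes rose under RLE scaling, with no filter or on its own 6 libraries, and 3 cytosolic genes fell with no filter. Fits without 1 library gave over the 3 editors 10 to 12 cytosolic genes that rose and 1 to 1 that fell, and 5 to 5 and 4 to 5 mitochondrial genes. Without 1 of an editor's own 6 libraries, SaABE gave 9 to 11 and 2 to 2 cytosolic and 2 to 3 and 2 to 4 mitochondrial genes, SpABE 4 to 6 and 3 to 4 cytosolic and 1 to 2 and 3 to 5 mitochondrial genes, and SpCBE 10 to 13 and 1 to 1 cytosolic and 4 to 6 and 2 to 2 mitochondrial genes. Without any 1 of the 18 libraries, the members whose effect differed numbered 1 to 3 between SaABE and SpCBE, 6 to 9 between SpABE and SpCBE, and 7 to 15 between SaABE and SpABE. Without 1 of the 9 intergenic-guide libraries, those that differed between controls numbered 16 to 18 between SaABE and SpABE, 14 to 20 between SpABE and SpCBE and 16 to 22 between SaABE and SpCBE. The low of 1 between SaABE and SpCBE came without SaABE NRF1 replicate 2 or 3, SaABE intergenic replicate 3 or SpCBE NRF1 replicate 2, and the low of 7 between SaABE and SpABE without replicate 1 of SaABE (either guide), SpABE NRF1 replicate 3, SpCBE NRF1 replicate 1 or SpCBE intergenic replicate 3.

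Replicate numbers are shared by the groups, and whether they mark a pairing of the libraries is not known. Over 10023 genes, libraries with one number correlated in their distance from the group mean by -0.349, -0.284 and 0.054 for SaABE. The values were -0.06, 0.027 and 0.166 for SpABE. For SpCBE they were -0.19, -0.248 and 0.163. Libraries with different numbers ran from -0.144 to 0.358 for SaABE, from -0.306 to 0.317 for SpABE and from -0.27 to 0.379 for SpCBE. The distances within a group of 3 libraries depend on each other, so these values cannot decide whether libraries were paired. With the replicate number as a block, 9 cytosolic genes rose and 1 fell and 5 mitochondrial genes rose and 4 fell over the 3 editors, and AARS, HARS, HARS2 and KARS lost their calls. With the block, 1 member differed between SaABE and SpCBE, 6 between SpABE and SpCBE, and 6 between SaABE and SpABE. FARS2, the least abundant member with 11.4 scaled CPM, had a standard error of 0.05.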
